A study of Mus musculus with 22 samples.

Results

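The 40 genes described here drive the division of cells or mark cells that divide. They fell into 6 regulators of the G1-to-S transition (Ccnd1, Ccnd2, Ccne1, Ccne2, Cdk2 and E2f1), 12 genes of DNA replication and nucleotide supply (Mcm2 to Mcm7, Cdc6, Cdt1, Pcna, Rrm1, Rrm2 and Tyms) and 22 genes of mitosis. The mitotic genes were grouped by role into 8 genes of mitotic entry and chromosome condensation (Mki67, Top2a, Ccna2, Ccnb1, Ccnb2, Cdk1, Cdc25c and Foxm1), 4 mitotic kinases and their partner (Aurka, Aurkb, Plk1 and Birc5), 5 genes of the spindle checkpoint and kinetochore (Bub1, Bub1b, Cenpe, Cenpf and Cdc20) and 5 genes of spindle assembly and the midzone (Kif11, Kif20a, Tpx2, Prc1 and Nusap1). The genes were chosen by name, with earlier results of these data known. All 40 were found among the 55291 genes of the count table, and all 40 passed the filter on low counts in each of the 8 comparisons below.

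Livers came from male wild-type C57BL/6 pups that received a single intravenous injection on postnatal day 1 and were killed 36 hours later. There were 6 groups. Controls were PBS (n = 4) and AAV9.empty, the AAV9 capsid without a vector genome (n = 4). AAV9.EGFP (label rAAV9.CB.EGFP, n = 4) carried EGFP under the CB promoter, a chicken beta-actin promoter that is active in most cell types. rAAV9-ST3GAL5.v1 (label rAAV9.CB.ST3GAL5, n = 3, here v1) carried a cDNA for human ST3GAL5, the enzyme that makes the ganglioside GM3, under the same promoter. The group called E332K here (label rAAV9.CB.ST3GAL5.E332K, n = 3) carried that cDNA with the substitution E332K. rAAV9-ST3GAL5.v2 (label rAAV9.Syn1.ST3GAL5.miR122BS, n = 4, here v2) used the neuronal Syn1 promoter and added binding sites for miR-122, a microRNA abundant in hepatocytes. Each library was made from 1 liver sample, and since nothing given here ties pups to litters, the p-values reflect no more than the variation among these samples.

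Cells enter the cycle when D-type cyclins and then E-type cyclins, bound to their kinases, inactivate the retinoblastoma protein and free E2F factors to switch on the replication genes. The MCM proteins are loaded onto origins by Cdc6 and Cdt1 and unwind DNA in S phase, while ribonucleotide reductase and thymidylate synthase supply nucleotides. Mitotic genes follow in G2, when Cdk1 with B-type cyclins starts mitosis and the Aurora and Polo kinases and the kinetochore proteins build the spindle and control chromosome separation. The inhibitor p21, encoded by Cdkn1a and induced by p53, blocks the cyclin-dependent kinases and through the DREAM repressor complex lowers the transcription of both classes. DREAM and related complexes reach mitotic promoters through the cell cycle homology region (CHR), often near CCAAT boxes bound by NF-Y, and reach replication promoters through E2F sites. The liver of a newborn mouse is still growing and still makes blood, so its dividing cells include hepatocytes and the precursors of red and white blood cells.

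The elements named above are shown for genes whose levels are described below, and mitotic and replication promoters can hold the same element. RefSeq promoters (build GRCm38.p6) were matched for 30 of the 40 genes, and the 250 bases before each transcription start were searched on both strands for the CHR (written TTTGAA, with the variant that has a central pair CG, TTCGAA, also counted), for the box CCAAT that binds NF-Y, and for the E2F motif in the form TTCCCGC. Matches to different motifs were counted separately, and letters of one match may overlap another. Capitals mark the motif, each window reads 5′ to 3′ on the strand of the gene, and a motif on the opposite strand appears as its reverse complement, which for CCAAT is ATTGG. The first 4 windows hold a CHR of a mitotic gene, the next pair a CCAAT box of a mitotic gene and of a replication gene, and the last pair an E2F motif.
Cdk1, chr10:69352913-69352942, minus strand: ctttaccgcggcgagTTTGAAactgctggc
Cdc20, chr4:118437344-118437373, minus strand: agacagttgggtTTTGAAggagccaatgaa
Mki67, chr7:135716460-135716489, minus strand: ccgccgttttggTTTGAAtcgggcgggctg
Top2a, chr11:99024195-99024224, minus strand: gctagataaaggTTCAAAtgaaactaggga
Bub1, chr2:127831884-127831913, minus strand: ccgcagcggagaCCAATagtcaggcgcgct
Mcm6, chr1:128359706-128359735, minus strand: cagctcctaccctgttATTGGctgaggtga
Mcm7, chr5:138172030-138172059, minus strand: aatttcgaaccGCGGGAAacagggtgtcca
Cdk2, chr10:128705052-128705081, minus strand: gggggcggggccagggaaacGCGGGAAgga

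A CHR was found in 8 of the 16 mitotic genes matched, in 2 of the 11 replication genes and in 0 of the 3 G1/S regulators, against 17.15% of all 32851 promoters. CCAAT was found in 14 of the 16 mitotic and 8 of the 11 replication genes, against 33.85% of all promoters. The E2F motif was found in 0 of the 16 mitotic genes, in 3 of the 11 replication genes (Mcm7, Cdc6 and Rrm1) and in 1 of the 3 G1/S regulators (Cdk2), against 3.82%. All 8 mitotic promoters with a CHR also held CCAAT, a pair that 6.02% of all promoters held. These matches are a description of letters in a window and not of binding.

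Library totals ranged from 17164502 to 24305788 expected counts. Hepatocyte markers (9 genes of the list found in the table, among them Alb, Apoa1 and Ttr) summed to 128027 to 153009 CPM (counts scaled to a common library size with TMM factors) in AAV9.empty livers, so the defining markers of the labelled tissue were present, and to 88791 to 101356 CPM in v1 livers. Of these 9 markers, 8 fell and 1 (Fgb) rose in v1, 4 fell in E332K, 1 fell in v2 and 0 passed the test in AAV9.EGFP. The 19 erythroid markers summed to 38783 to 48354 CPM in AAV9.empty livers and to 40534 to 47138 CPM in v1 livers. They varied most in the E332K livers, at 56004, 60729 and 28378 CPM, and in the v2 livers, at 37065, 27126, 55108 and 51402 CPM. All 11 neutrophil markers rose in v1, 6 rose in E332K, and 0 passed the test in AAV9.EGFP or v2. Of all genes tested, 13.8% rose and 14.3% fell in v1, 7.93% rose and 7.09% fell in E332K, and 2.5% fell in v2.

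Levels compared between genes are given per length, as TPM (a library-scaled level per transcript length) averaged over the 22 libraries. Pcna, the sliding clamp of the replication fork, had the highest level at 171 TPM (range 141 to 221), followed by Rrm2, the regulated subunit of ribonucleotide reductase, at 125 TPM (range 92.1 to 173), Birc5 (survivin) at 120.3 TPM and Cdk1 at 106 TPM. The ranges of Pcna, Rrm2, Birc5 and Cdk1 overlapped. The lowest levels were those of Cenpf at 5.01 TPM (range 2.01 to 7.22), Cdc25c at 5.11, Cenpe at 5.72, Bub1 at 6.38 and Ccnd2 at 7.01 TPM (range 4.28 to 15.4), and these ranges overlapped as well. Among the cyclins of G1, Ccne1 stood at 30.8 TPM, Ccnd1 at 23.6, Ccne2 at 10.6 and Ccnd2 at 7.01 TPM. Every gene of the set was thus detected in every library.

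**Figure D1:**
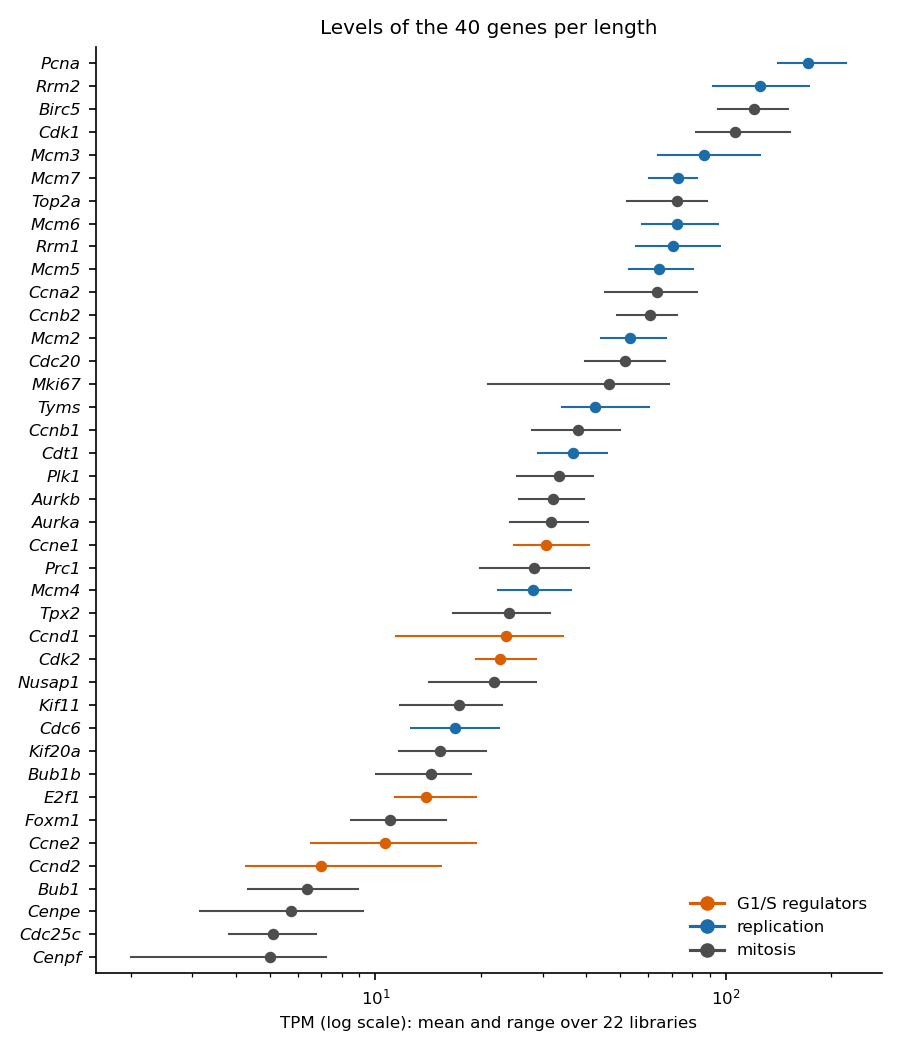
Level of each of the 40 genes per length, in TPM on a log scale; points are means over the 22 libraries, lines run from the lowest to the highest library, and colours mark G1/S regulators, replication and mitosis. Pcna sits highest at 171 TPM and Cenpf lowest at 5.01 TPM.

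Few of the 40 genes passed the test in any comparison, and none changed by as much as 2-fold. Against AAV9.empty, v1 raised 1 gene and lowered 2, a total of 3 of 40, where 28.1% of all genes tested passed (13.8% higher, 14.3% lower). E332K lowered 4 of 40, against 15% of all genes (7.93% higher, 7.09% lower). AAV9.EGFP lowered 1 of 40, against 0.442% of all genes (0.387% higher, 0.0553% lower). With v2, 0 of 40 passed, against 5.38% (2.88% higher, 2.5% lower). In AAV9.empty against PBS, 0 of 40 passed, against 0.311% of all genes (0.104% higher, 0.207% lower). The v1 livers were higher than E332K in 1 gene, where 19.6% of all genes passed (9.55% higher, 10% lower). They were higher than AAV9.EGFP in 2 genes, where 27.8% passed (12.7% higher, 15.1% lower), and higher than v2 in 1 gene, where 23.4% passed (12.1% higher, 11.3% lower). The comparisons with AAV9.empty share its 4 libraries, so their values are not independent of each other. In whole liver, a lower level cannot be told apart from fewer cells of a dividing type.

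The median log2 fold change of the 40 genes against AAV9.empty was -0.08 in v1, -0.16 in E332K, -0.22 in AAV9.EGFP and -0.06 in v2, while that of all genes tested was 0.02, -0.002, 0.006 and 0.007. Split by class, the 22 mitotic genes had medians of -0.07, -0.22, -0.28 and -0.14, and the 18 G1/S and replication genes had medians of -0.09, -0.05, -0.21 and 0.01. With single libraries left out, the median of the 40 ran from -0.15 to 0.02 in v1, from -0.23 to -0.10 in E332K, from -0.32 to -0.18 in AAV9.EGFP and from -0.12 to -0.02 in v2. In v1 it was 0.02 without v1 replicate 2, when 19 of the 40 genes were below 0 in place of 26, -0.12 and -0.15 without v1 replicates 1 and 3, and -0.14 and -0.05 without AAV9.empty replicates 3 and 4. In E332K it was -0.10 without E332K replicate 3. In v2 it was -0.12 and -0.10 without v2 replicates 1 and 4, and -0.12 and -0.02 without AAV9.empty replicates 3 and 4. The number of mitotic genes below 0 was 16 of 22 in v1, 21 in E332K, 21 in AAV9.EGFP and 19 in v2. The number of G1/S and replication genes below 0 was 10 of 18 in v1, 12 in E332K, 15 in AAV9.EGFP and 7 in v2. The 95% interval of the fold change, not adjusted for the number of genes, lay within 2-fold in either direction for 39 of the 40 genes in v1 (all but Ccnd2), 39 in E332K (all but Cenpe), 40 in AAV9.EGFP and 40 in v2, and within 1.5-fold for 37, 35, 34 and 39. On these livers, then, changes of 2-fold or more lay outside the intervals of nearly all of the set. Changes of 1.5-fold or more lay outside those of most of it, and no narrower limit was examined.

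**Figure D2:**
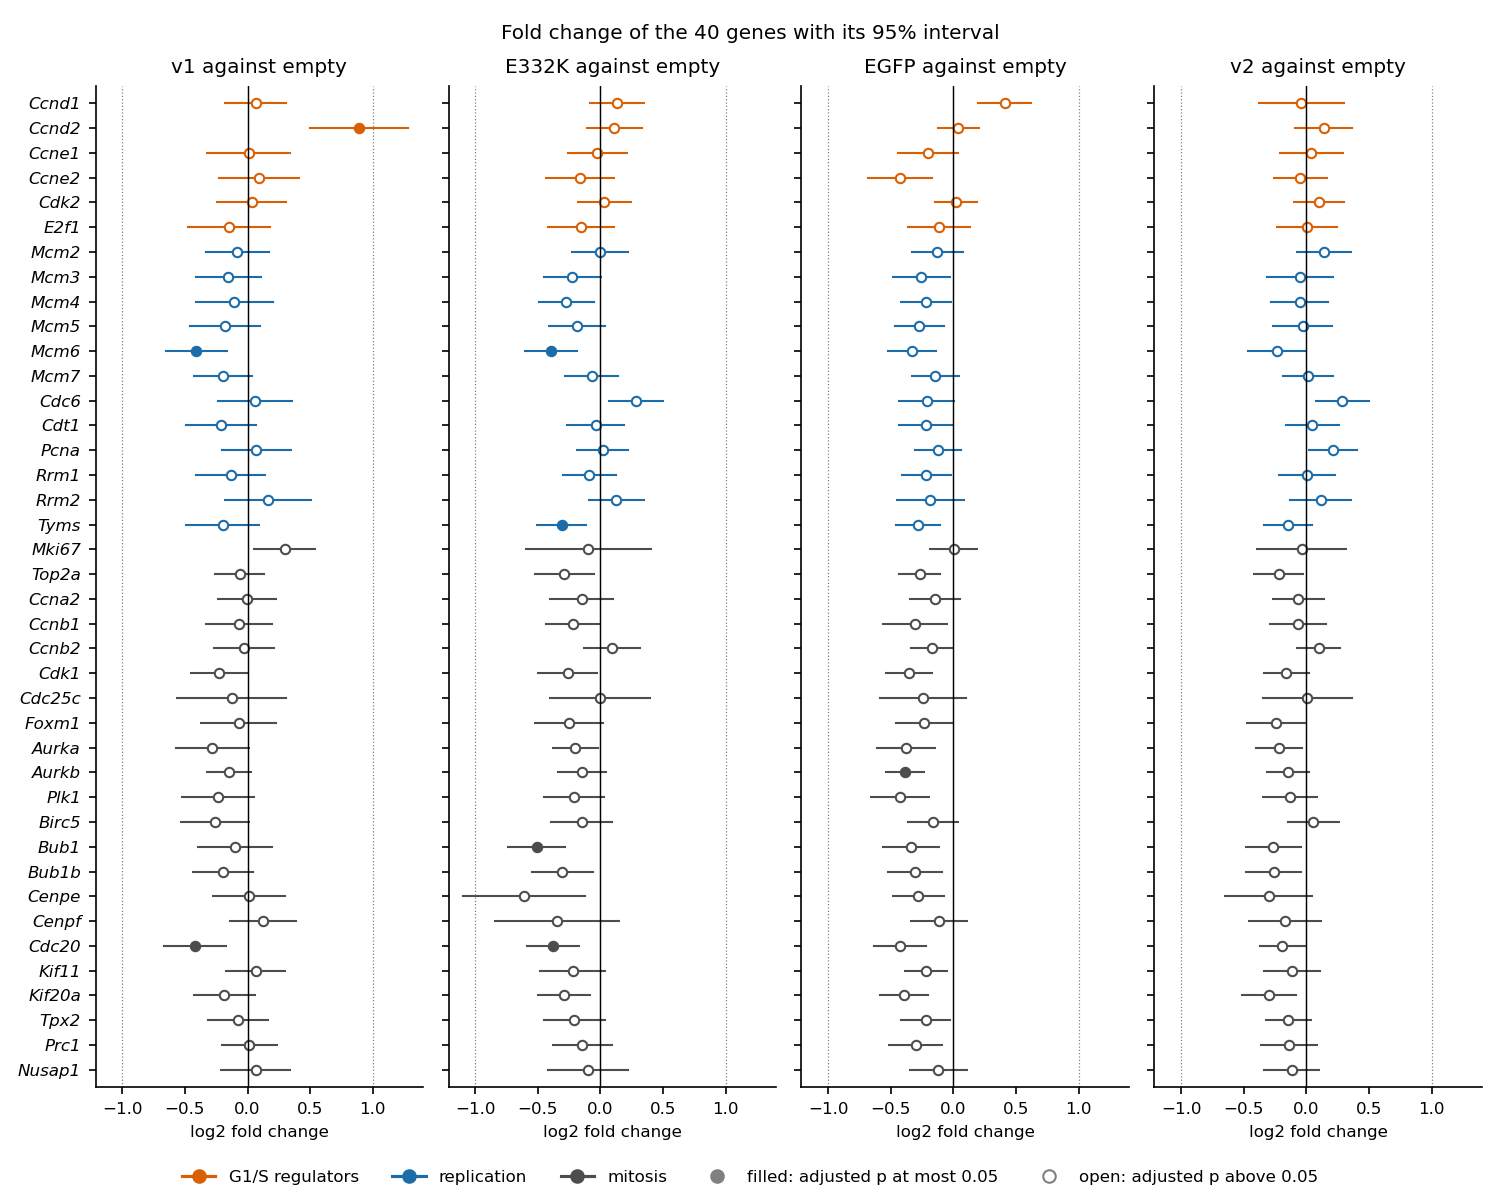
Log2 fold change against AAV9.empty (x axis) for each of the 40 genes (rows) in v1, E332K, AAV9.EGFP and v2; lines are 95% intervals, filled points have an adjusted p of at most 0.05 and dotted lines mark 2-fold. Filled points number 3, 4, 1 and 0, and the points of AAV9.EGFP lie to the left of 0 for 36 of 40 genes.

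Cdkn1a, which encodes p21, is not one of the 40 genes but stands upstream of them. Its level was 26.00, 18.5, 19.03 and 19.9 CPM in the PBS livers, 24.8, 31.3, 28.1 and 29.98 in the AAV9.empty livers and 131, 130.1, 125 and 128 in the AAV9.EGFP livers, and 184, 196 and 204 CPM with v1, 232, 208 and 276 with E332K and 122, 179, 166 and 162 with v2. Every library that received a vector genome was above every control library. Against AAV9.empty the log2 fold change was 2.77 (SE 0.095, adjusted p = 2.27e-06) in v1, 3.06 (adjusted p = 1.78e-08) in E332K, 2.17 (adjusted p = 1.7e-09) in AAV9.EGFP and 2.47 (adjusted p = 4.01e-07) in v2. Of the 16 inhibitors of cyclin-dependent kinases and p53 targets tested, 9 rose and 2 fell in v1, 7 rose and 1 fell in E332K, 5 rose and 0 fell in AAV9.EGFP, and 6 rose and 0 fell in v2. Of all genes tested, 13.8% rose and 14.3% fell in v1, and 7.93% rose and 7.09% fell in E332K. In AAV9.EGFP 0.387% rose and 0.0553% fell, and in v2 2.88% rose and 2.5% fell. Ccng1 (cyclin G1, a p53 target) rose by 2.01 in v1, 2.46 in E332K, 1.72 in AAV9.EGFP and 1.99 in v2 on the log2 scale. Btg2, an antiproliferative gene, rose by 2.12, 0.81, 0.71 and 0.47, and Zmat3, an RNA-binding p53 target, by 1.67, 1.84, 1.32 and 1.47. Cdkn1c, which encodes the inhibitor p57, fell in v1 (-1.30, adjusted p = 0.000135) and in E332K (-0.56, adjusted p = 0.00365). The list was chosen with earlier results of these data known.

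The gene with the largest change in the 8 comparisons was Ccnd2 (chromosome 6, 127125162 to 127152193, minus strand), which encodes the D-type cyclin D2. Its level was 26.7, 32.8, 30.1 and 28.6 CPM in the PBS livers, 27.3, 32.5, 31.01 and 34.5 in the AAV9.empty livers and 31.6, 31.4, 33.3 and 31.7 in the AAV9.EGFP livers. It was 50.2, 78.5 and 44.96 CPM with v1, 36.5, 34.1 and 31.01 with E332K and 35.4, 28.04, 39.01 and 34.8 with v2, so each v1 library stood above all 19 other libraries and replicate 2 stood highest. The mean was 57.9 ± 18.04 CPM (SD, n = 3) in v1 and 31.3 ± 3.06 CPM (SD, n = 4) in AAV9.empty, a 1.85-fold rise (log2 0.89, SE 0.18, 95% interval 0.50 to 1.28, adjusted p = 0.00562). Ccnd2 was also higher in v1 than in AAV9.EGFP (log2 0.84, adjusted p = 0.00634), v2 (0.77, adjusted p = 0.0198) and E332K (0.79, adjusted p = 0.0292). In E332K, AAV9.EGFP and v2 against AAV9.empty its log2 fold changes were 0.11 (adjusted p = 0.499), 0.04 (0.881) and 0.14 (0.483). Without v1 replicate 2 the rise over AAV9.empty was 0.61 (adjusted p = 0.00173), and the call against AAV9.empty, AAV9.EGFP and v2 was kept whichever library was left out. The call against E332K was lost without v1 replicate 1 (adjusted p = 0.0616) and without E332K replicate 1 (0.0711), 2 (0.0815) or 3 (0.108). Lymphocyte markers moved with Ccnd2: of 8 T and NK cell genes, 6 were tested in v1 against AAV9.empty and 4 rose, their sum was 45.4 to 58.7 CPM in v1 against 17.1 to 23.2 in AAV9.empty, 22.3 to 31.9 in E332K and 15.3 to 23.1 in v2, and within v1 replicate 2 was highest at 58.7. The neutrophil markers summed to 2814 to 3123 CPM in v1 against 1844 to 2007 in AAV9.empty. No marker of either list was at 0 in all libraries, and their part in the level of Ccnd2 was not tested.

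**Figure D3:**
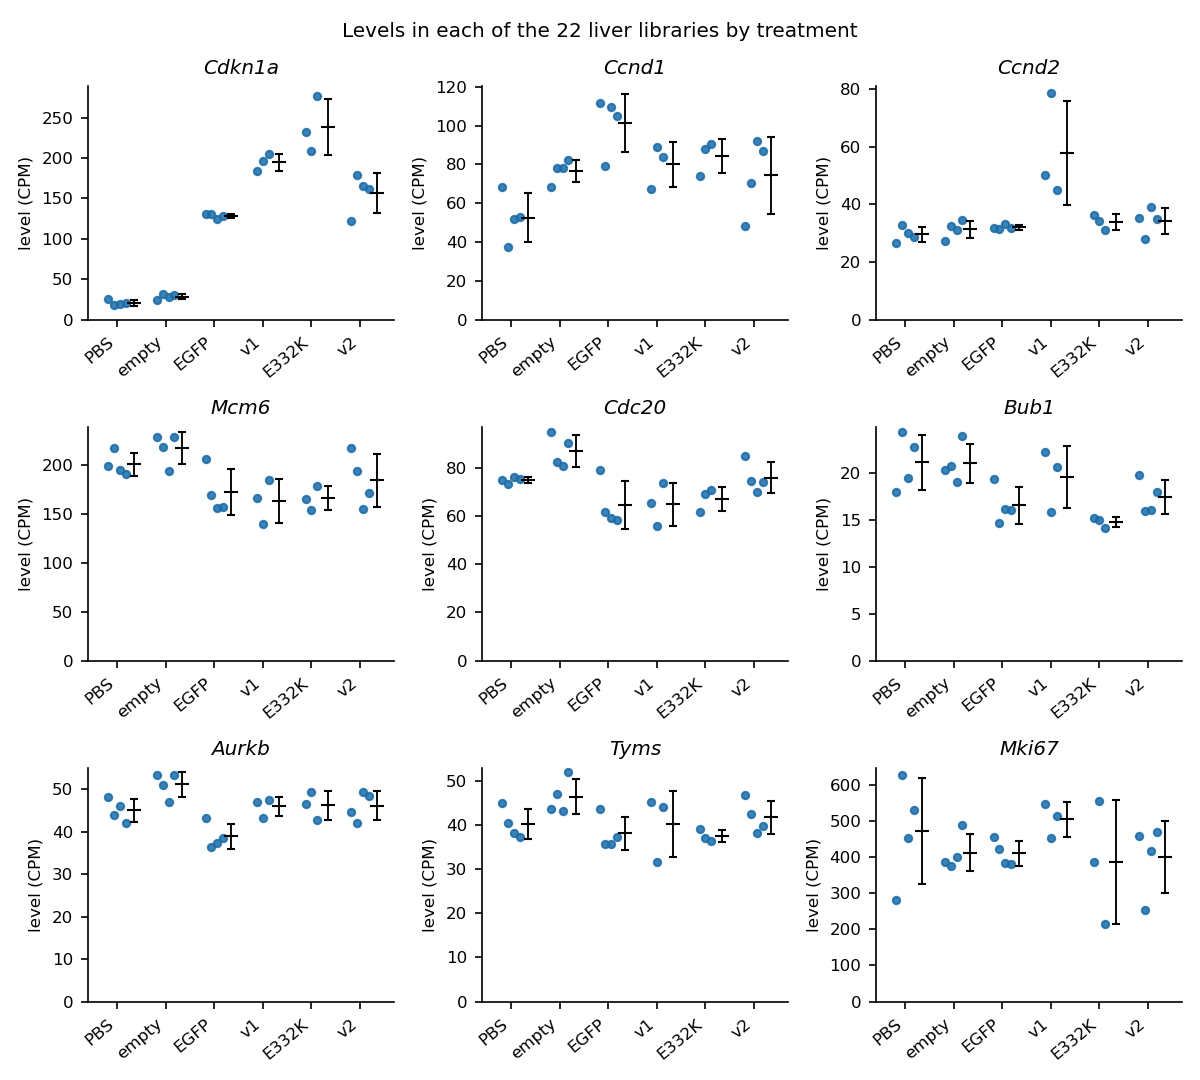
Level (CPM, y axis from 0) of Cdkn1a and 8 of the 40 genes in each library by group (empty and EGFP are AAV9.empty and AAV9.EGFP); points are libraries and bars are means with SD. Cdkn1a separates all libraries that received a vector genome from the controls, Ccnd2 is highest in the 3 v1 libraries, and Mki67 spreads from 214 CPM in E332K replicate 3 to 625 CPM in PBS replicate 2.

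Ccnd1, which encodes cyclin D1, the main D-type cyclin of regenerating hepatocytes, followed another order. Its level was 68.2, 37.4, 51.9 and 52.7 CPM in the PBS livers, 68.6, 78.3, 78.2 and 82.05 in the AAV9.empty livers and 112, 79.2, 109.7 and 105 in the AAV9.EGFP livers, and 67.1, 89.02 and 84.1 CPM with v1, 74.3, 87.97 and 90.5 with E332K and 48.1, 70.4, 92.1 and 86.8 with v2. Of the AAV9.EGFP libraries, 3 lay above all libraries of the other groups, and the PBS libraries lay below the lowest AAV9.empty library. The log2 fold change of AAV9.EGFP over AAV9.empty was 0.41 (95% interval 0.20 to 0.62, adjusted p = 0.0967), which did not pass. DESeq2 called it, and so did the main test without AAV9.EGFP replicate 2 (0.51, adjusted p = 0.0101), when Ccnd1 was the 1 gene of the set called. The values in v1, E332K and v2 were 0.07, 0.13 and -0.04. Without AAV9.EGFP replicate 2, Ccnd1 was lower in v1 than in AAV9.EGFP (-0.45, adjusted p = 0.027), against -0.35 (adjusted p = 0.0831) with all libraries.

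The E-type cyclins, Cdk2 and E2f1 did not pass the test against AAV9.empty. Ccne1 (cyclin E1) was 46.8, 48.6, 47.7 and 43.4 CPM in the PBS livers, 52.3, 52.9, 43.04 and 57.2 in the AAV9.empty livers and 56.1, 40.9, 39.96 and 41.00 in the AAV9.EGFP livers, and 57.6, 39.4 and 57.4 CPM with v1, 46.1, 49.3 and 56.2 with E332K and 63.3, 54.6, 46.6 and 46.1 with v2. Ccne2 (cyclin E2) was 22.9, 28.95, 31.3 and 28.7 CPM in the PBS livers, 24.8, 24.9, 21.6 and 28.3 in the AAV9.empty livers and 22.9, 17.2, 18.2 and 15.5 in the AAV9.EGFP livers, and 27.95, 20.8 and 30.7 CPM with v1, 23.9, 24.8 and 18.1 with E332K and 23.02, 21.2, 25.9 and 25.9 with v2. For both cyclins the other 3 AAV9.EGFP libraries lay below every AAV9.empty library, while AAV9.EGFP replicate 1 lay within the AAV9.empty range. Ccne2 (chromosome 4, 11191351 to 11204779, plus strand) was higher in v1 than in AAV9.EGFP (log2 0.51, SE 0.16, adjusted p = 0.0416), although v1 replicate 2, at 20.8 CPM, lay within the AAV9.EGFP range. Against AAV9.empty, Ccne2 was 0.09 in v1 (adjusted p = 0.661) and -0.43 in AAV9.EGFP (adjusted p = 0.153). Cdk2, the kinase of cyclins E and A, was 43.5, 50.6, 48.3 and 45.4 CPM in the PBS livers, 42.7, 43.5, 40.7 and 52.2 in the AAV9.empty livers and 47.8, 44.6, 44.2 and 44.1 in the AAV9.EGFP livers, and 47.4, 38.04 and 51.5 CPM with v1, 45.6, 47.7 and 44.1 with E332K and 48.4, 42.9, 51.7 and 48.7 with v2. E2f1, the activator of replication genes, was 29.4, 31.6, 31.6 and 35.3 CPM in the PBS livers, 31.8, 35.2, 29.6 and 43.00 in the AAV9.empty livers and 38.1, 30.1, 31.7 and 28.6 in the AAV9.EGFP livers, and 32.7, 26.1 and 35.4 CPM with v1, 32.4, 29.6 and 32.2 with E332K and 35.9, 37.5, 31.6 and 34.7 with v2. The groups overlapped for both, and their log2 fold changes against AAV9.empty were all between -0.16 and 0.10. The Ccne2 call was kept without v1 replicate 2 (adjusted p = 0.00643) and without AAV9.EGFP replicate 1 (0.0239) and lost when any 1 of the other 5 libraries was left out (adjusted p = 0.124 without v1 replicate 1, 0.121 without v1 replicate 3, and 0.101, 0.0914 and 0.106 without AAV9.EGFP replicates 2, 3 and 4).

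Among the 12 replication genes, 1 fell in v1, 2 fell in E332K and 0 passed the test in AAV9.EGFP or v2. The shares of all genes tested were 14.3% lower in v1 and 7.09% lower in E332K, with 0.442% passing in AAV9.EGFP and 5.38% in v2. Mcm6 (chromosome 1, 128331590 to 128359664, minus strand), a subunit of the replicative helicase, was 199, 218, 196 and 191 CPM in the PBS livers, 229, 219, 194 and 229 in the AAV9.empty livers and 207, 169.6, 157 and 158 in the AAV9.EGFP livers, and 167, 140.1 and 185 CPM with v1, 166, 154 and 179 with E332K and 218, 194, 155 and 172 with v2. The v1 and E332K livers lay below all 4 AAV9.empty livers. The log2 fold change was -0.41 (SE 0.11, 95% interval -0.65 to -0.16, adjusted p = 0.0213) in v1 and -0.39 (SE 0.096, adjusted p = 0.0171) in E332K, and the difference between v1 and E332K was -0.00 (95% interval -0.31 to 0.31, adjusted p = 0.985). The v1 call was lost without AAV9.empty replicate 1 (adjusted p = 0.0608) and without v1 replicate 1 (0.0631). The E332K call was lost without AAV9.empty replicate 1 (0.0572) and without E332K replicate 1 (0.0581). Tyms (chromosome 5, 30058202 to 30073617, minus strand), which encodes thymidylate synthase, was 45.1, 40.4, 38.3 and 37.3 CPM in the PBS livers, 43.7, 47.2, 43.2 and 51.97 in the AAV9.empty livers and 43.8, 35.8, 35.7 and 37.3 in the AAV9.EGFP livers, and 45.3, 31.7 and 44.1 CPM with v1, 39.05, 37.1 and 36.5 with E332K and 46.8, 42.6, 38.2 and 39.8 with v2. The E332K livers lay below the AAV9.empty livers, and on the log2 scale the difference was -0.31 (SE 0.091, adjusted p = 0.039). That call was lost when any 1 of the 7 libraries was left out, with an adjusted p of 0.0624, 0.0889, 0.0554 and 0.0971 without AAV9.empty replicates 1 to 4, and 0.0764, 0.0795 and 0.0842 without E332K replicates 1 to 3.

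The other helicase subunits gave smaller values. Mcm2 was 168, 177, 162 and 153 CPM in the PBS livers, 163, 168, 133 and 167 in the AAV9.empty livers and 170.2, 129.6, 133 and 142 in the AAV9.EGFP livers, and 158, 130.0 and 159 CPM with v1, 159, 146 and 167 with E332K and 199.6, 172, 159 and 164 with v2. Mcm7 was 185, 187, 171 and 165 CPM in the PBS livers, 182, 193, 165 and 192 in the AAV9.empty livers and 198, 154, 151 and 156 in the AAV9.EGFP livers, and 168, 137 and 172 CPM with v1, 165, 165 and 194 with E332K and 204, 193, 163 and 175 with v2. For both, AAV9.EGFP replicate 1 stood above its 3 group mates, and the groups overlapped. Their log2 fold changes in v1, E332K, AAV9.EGFP and v2 were -0.08, -0.01, -0.13 and 0.14 for Mcm2 and -0.20, -0.07, -0.14 and 0.01 for Mcm7, and none passed. Cdc6, which loads the helicase, was 48.6, 49.7, 46.4 and 42.02 CPM in the PBS livers, 46.6, 44.1, 35.8 and 43.9 in the AAV9.empty livers and 44.4, 32.3, 35.2 and 34.5 in the AAV9.EGFP livers, and 48.1, 35.3 and 49.2 CPM with v1, 49.6, 54.4 and 52.05 with E332K and 57.1, 54.5, 48.00 and 47.4 with v2. The E332K and v2 livers lay above all AAV9.empty livers for Cdc6, but the log2 fold changes of 0.29 (adjusted p = 0.0714) and 0.29 (adjusted p = 0.103) did not pass.

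Pcna and Rrm2, the replication genes of highest level, did not pass either. Pcna was 192, 215, 217 and 204 CPM in the PBS livers, 205, 194, 170.0 and 212 in the AAV9.empty livers and 206, 175, 163 and 169 in the AAV9.EGFP livers, and 235, 168 and 210.5 CPM with v1, 199, 198 and 196 with E332K and 247, 221, 211 and 222 with v2. Rrm2 was 206, 269, 203 and 222 CPM in the PBS livers, 237, 219, 189.8 and 245 in the AAV9.empty livers and 258, 188, 163 and 171 in the AAV9.EGFP livers, and 282, 184 and 279.7 CPM with v1, 233, 259.6 and 237 with E332K and 286, 200.3, 238 and 236 with v2. In both genes v1 replicate 2 lay below its group mates, at -0.40 and -0.61 on the log2 scale from their mean. The log2 fold changes in v1 were 0.07 (adjusted p = 0.713) for Pcna and 0.16 (adjusted p = 0.465) for Rrm2, and without v1 replicate 2 that of Rrm2 was 0.34 (adjusted p = 0.0398). Mcm3, Mcm4, Mcm5, Cdt1 and Rrm1 did not pass the test against AAV9.empty in v1, E332K, AAV9.EGFP or v2, the smallest adjusted p among them being 0.0872 for Mcm4 in E332K (-0.27).

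Of the 22 mitotic genes, 1 fell in v1, 2 fell in E332K, 1 fell in AAV9.EGFP and 0 passed the test in v2. Among all genes tested, 14.3% fell in v1, 7.09% in E332K and 0.0553% in AAV9.EGFP, and 5.38% passed in v2. Both genes that fell in E332K come from the group of the spindle checkpoint and kinetochore. Cdc20 (chromosome 4, 118432901 to 118437352, minus strand), the activator of the anaphase-promoting complex, was 74.95, 73.5, 76.3 and 75.3 CPM in the PBS livers, 94.98, 82.6, 80.8 and 90.1 in the AAV9.empty livers and 79.3, 61.6, 59.03 and 58.3 in the AAV9.EGFP livers. It was 65.2, 55.8 and 73.7 CPM with v1, 61.6, 68.97 and 70.7 with E332K and 84.9, 74.6, 70.2 and 74.3 with v2, so the v1 and E332K livers lay below every AAV9.empty liver and the v2 livers overlapped them. The log2 fold change was -0.42 (SE 0.11, adjusted p = 0.019) in v1, -0.38 (SE 0.094, adjusted p = 0.0186) in E332K, -0.43 (SE 0.095, adjusted p = 0.0784) in AAV9.EGFP and -0.19 (adjusted p = 0.194) in v2. The value in AAV9.EGFP, where replicate 1 lay above the other 3, did not pass. The call in v1 was lost without AAV9.empty replicate 1 (adjusted p = 0.0551) and without v1 replicate 1 (0.0635), and the call in E332K without AAV9.empty replicate 1 (0.0633) and without E332K replicate 1 (0.0885).

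Bub1 (chromosome 2, 127801122 to 127831865, minus strand), a kinase of the spindle checkpoint, was 18.02, 24.4, 19.5 and 22.7 CPM in the PBS livers, 20.3, 20.8, 19.03 and 23.99 in the AAV9.empty livers and 19.3, 14.6, 16.2 and 16.05 in the AAV9.EGFP livers. It was 22.2, 15.8 and 20.6 CPM with v1, 15.2, 15.01 and 14.2 with E332K and 19.8, 15.9, 16.1 and 18.02 with v2, and the E332K livers lay below all AAV9.empty livers. The mean was 14.8 ± 0.557 CPM (SD, n = 3) in E332K and 21.03 ± 2.11 CPM (SD, n = 4) in AAV9.empty, a log2 fold change of -0.51 (SE 0.10, 95% interval -0.74 to -0.28, adjusted p = 0.00761). The call was kept whichever of the 7 libraries was left out. In v1, AAV9.EGFP and v2 the values were -0.10, -0.34 and -0.26, and the difference between v1 and E332K was 0.42 (95% interval 0.08 to 0.76, adjusted p = 0.0794). Bub1b, which encodes the checkpoint protein BubR1, was 47.4, 50.1, 45.8 and 48.1 CPM in the PBS livers, 52.02, 52.9, 40.6 and 48.4 in the AAV9.empty livers and 46.3, 35.1, 39.3 and 35.8 in the AAV9.EGFP livers, and 43.4, 38.6 and 44.8 CPM with v1, 41.4, 42.4 and 33.99 with E332K and 43.8, 35.3, 38.7 and 43.3 with v2. Its log2 fold change was -0.30 (adjusted p = 0.0892) in E332K, -0.19 in v1, -0.30 in AAV9.EGFP and -0.26 in v2.

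With the mean log2 level of the erythroid markers as a covariate in a fit of all 6 groups, the count of genes lower in E332K was 16 of 40 in place of 4, the count in v1 was 9 (1 higher, 8 lower) in place of 3, in AAV9.EGFP 7 lower in place of 1 and in v2 6 lower in place of 0. In these fits 19.2% of all genes passed in E332K (9.07% lower), 28.6% in v1 (15.1% lower), 0.605% in AAV9.EGFP (0.221% lower) and 8.62% in v2 (4.06% lower). The same fit without the covariate gave 3 in v1 and 3 in E332K, where 28.7% and 13.5% of all genes passed. With the covariate the median of the 40 genes was -0.16 in v1, -0.30 in E332K, -0.26 in AAV9.EGFP and -0.15 in v2. The control comparison moved too: in AAV9.empty against PBS the median was 0.13 with the covariate, with 6 genes below 0. Without the covariate the same fit gave 0.02 there, with 18 genes below 0. The covariate thus also shifted the reference group of the 4 vector comparisons relative to PBS. E332K replicate 3 and v2 replicate 2 had both the lowest erythroid sums and the lowest mitotic sums of their groups. Without AAV9.empty replicate 1 the count in E332K was 1 (Bub1) and without E332K replicate 1 it was 1 (Bub1). The count in v1 was 1 (Ccnd2) without AAV9.empty replicate 1, 1 (Ccnd2) without v1 replicate 1 and 5 without v1 replicate 2, when Mki67 and Rrm2 were called higher.

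Cenpe and Cenpf encode large kinetochore proteins and had some of the widest spreads. Cenpe was 25.5, 46.9, 46.4 and 47.9 CPM in the PBS livers, 37.9, 35.3, 37.6 and 47.7 in the AAV9.empty livers and 35.6, 32.2, 33.1 and 29.2 in the AAV9.EGFP livers, and 46.2, 34.9 and 38.4 CPM with v1, 30.3, 33.4 and 13.9 with E332K and 35.99, 20.5, 34.7 and 36.9 with v2. Cenpf was 33.4, 65.1, 54.1 and 61.3 CPM in the PBS livers, 49.4, 44.00, 51.3 and 63.3 in the AAV9.empty livers and 52.9, 51.3, 45.1 and 42.4 in the AAV9.EGFP livers, and 59.9, 53.3 and 56.6 CPM with v1, 45.96, 54.7 and 22.1 with E332K and 50.98, 34.4, 49.2 and 49.8 with v2. PBS replicate 1, E332K replicate 3 and v2 replicate 2 were each the lowest of their group for both genes. The log2 fold change of Cenpe in E332K was -0.61 (95% interval -1.09 to -0.13, adjusted p = 0.0854), the lowest value among the 40 genes in that comparison, and it did not pass. Without E332K replicate 3 it was -0.31 (adjusted p = 0.126).

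The kinases of mitosis and their partner had log2 fold changes below 0 for all 4 genes in v1, E332K and AAV9.EGFP and for 3 of the 4 in v2. Aurkb (chromosome 11, 69045647 to 69051664, plus strand), the kinase of the chromosomal passenger complex, was 48.1, 43.9, 46.01 and 41.9 CPM in the PBS livers, 53.2, 50.9, 47.00 and 53.3 in the AAV9.empty livers and 43.2, 36.5, 37.3 and 38.5 in the AAV9.EGFP livers. It was 47.1, 43.2 and 47.5 CPM with v1, 46.5, 49.3 and 42.7 with E332K and 44.6, 41.9, 49.3 and 48.3 with v2. The AAV9.EGFP livers lay below all AAV9.empty livers, at 38.9 ± 2.98 CPM (SD, n = 4) against 51.1 ± 2.96 CPM (SD, n = 4), and the log2 fold change was -0.39 (SE 0.071, 95% interval -0.54 to -0.24, adjusted p = 0.0251). Aurkb was the single member of the set that fell in AAV9.EGFP, and this call was lost in 6 of the 8 fits that left out a library, kept without AAV9.empty replicate 3 (adjusted p = 0.0219) and without AAV9.EGFP replicate 1 (0.0102). The lost calls had adjusted p-values of 0.118, 0.0777 and 0.054 without AAV9.empty replicates 1, 2 and 4 and of 0.142, 0.0842 and 0.098 without AAV9.EGFP replicates 2, 3 and 4. Aurka, the kinase of the spindle poles, was 48.2, 51.2, 43.6 and 48.1 CPM in the PBS livers, 57.2, 54.5, 50.7 and 56.6 in the AAV9.empty livers and 54.5, 37.6, 37.2 and 38.9 in the AAV9.EGFP livers, and 48.7, 34.8 and 51.3 CPM with v1, 47.8, 49.1 and 46.2 with E332K and 51.7, 40.6, 47.1 and 48.1 with v2. Its log2 fold change was -0.38 in AAV9.EGFP (adjusted p = 0.17) and -0.28 in v1 (adjusted p = 0.135). Birc5, the survivin subunit of the passenger complex, was 80.6, 105, 92.3 and 95.2 CPM in the PBS livers, 92.2, 78.1, 87.8 and 104 in the AAV9.empty livers and 94.4, 78.4, 75.6 and 73.3 in the AAV9.EGFP livers, and 85.5, 64.8 and 75.8 CPM with v1, 84.5, 89.4 and 70.9 with E332K and 104, 90.5, 87.97 and 92.5 with v2. Birc5 was -0.30 in v1 against v2 (95% interval -0.55 to -0.04, adjusted p = 0.0874), and v1 replicate 2 was the lowest of the 22 libraries. Plk1, the Polo kinase, had its lowest value in AAV9.EGFP at -0.43 (adjusted p = 0.116).

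Mki67, the proliferation antigen Ki-67, varied widely between livers of the same treatment. Its level was 279.6, 625, 452 and 531 CPM in the PBS livers, 385, 375, 399.8 and 487 in the AAV9.empty livers and 455, 421, 384 and 382 in the AAV9.EGFP livers. It was 546, 453 and 513 CPM with v1, 386, 556 and 214 with E332K and 458, 253, 417 and 470.3 with v2. PBS replicate 1, E332K replicate 3 and v2 replicate 2 were the lowest of their groups and lay at -0.93, -1.11 and -0.82 on the log2 scale from the mean of their group mates. The log2 fold changes were 0.30 in v1 (95% interval 0.05 to 0.54, adjusted p = 0.0703), -0.10 in E332K, 0.00 in AAV9.EGFP and -0.04 in v2. Top2a, the topoisomerase of chromosome condensation, was 213, 277, 234 and 255 CPM in the PBS livers, 240.3, 254, 224 and 265 in the AAV9.empty livers and 231, 197, 191 and 192 in the AAV9.EGFP livers, and 246, 215 and 243 CPM with v1, 208, 226 and 171 with E332K and 233, 185, 206 and 216 with v2. Its values were -0.29 in E332K (adjusted p = 0.0909), -0.27 in AAV9.EGFP (adjusted p = 0.155) and -0.06 in v1.

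Cdk1 and Ccnb1 encode the kinase and the cyclin that start mitosis. Cdk1 was 75.4, 80.6, 64.4 and 73.9 CPM in the PBS livers, 79.9, 81.7, 71.6 and 90.4 in the AAV9.empty livers and 72.7, 61.7, 59.5 and 58.2 in the AAV9.EGFP livers, and 74.4, 61.2 and 71.3 CPM with v1, 68.4, 76.1 and 58.01 with E332K and 72.1, 66.5, 74.2 and 75.8 with v2. Ccnb1 was 71.2, 88.9, 71.99 and 70.7 CPM in the PBS livers, 85.1, 77.8, 72.04 and 89.4 in the AAV9.empty livers and 86.4, 59.7, 57.1 and 58.8 in the AAV9.EGFP livers, and 81.2, 64.1 and 85.8 CPM with v1, 73.2, 73.1 and 62.6 with E332K and 93.5, 71.7, 70.7 and 72.6 with v2. In AAV9.EGFP, 3 of the 4 livers lay below every AAV9.empty liver for both genes and replicate 1 did not. The log2 fold changes in AAV9.EGFP were -0.35 (adjusted p = 0.0967) for Cdk1 and -0.30 (adjusted p = 0.311) for Ccnb1. Kif20a, a kinesin of cytokinesis, was 49.4, 48.9, 47.98 and 41.01 CPM in the PBS livers, 54.1, 55.6, 45.97 and 54.3 in the AAV9.empty livers and 47.01, 38.9, 38.1 and 35.6 in the AAV9.EGFP livers, and 43.9, 41.2 and 52.9 CPM with v1, 42.5, 46.8 and 39.6 with E332K and 48.00, 43.4, 35.7 and 43.1 with v2. It had the smallest p in v2 against AAV9.empty among the 40 genes, with a log2 fold change of -0.30 and an adjusted p of 0.0971. The remaining mitotic genes (Ccna2, Ccnb2, Cdc25c, Foxm1, Kif11, Tpx2, Prc1 and Nusap1) passed the test in none of the 8 comparisons.

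In AAV9.EGFP the set leaned to lower values without most genes passing. Log2 fold changes were below 0 for 36 of the 40 genes, against 48.4% of all genes tested, and ranged from -0.43 (Ccne2) to 0.41 (Ccnd1). The 4 genes at or above 0 were Ccnd1, Ccnd2, Cdk2 and Mki67. An unadjusted p under 0.05 was found for 25 of the 40 (62.5%), against 1806 of all 14473 genes tested. The 40 genes were measured in the same livers, so these are not counts of separate events. AAV9.EGFP replicate 1 lay above the mean of the other 3 AAV9.EGFP livers in 39 of the 40 genes, all but Ccnd2, with a median difference over the 40 of 0.33 on the log2 scale, so the 4 livers did not behave alike. Without AAV9.EGFP replicate 1, 11 genes fell in place of 1: Ccne2, Ccnb1, Mcm5, Aurka, Aurkb, Plk1, Top2a, Cdc20, Mcm6, Kif20a and Cdk1. The count was 2 without AAV9.empty replicate 3 and 0 without AAV9.empty replicate 1, 2 or 4 or without AAV9.EGFP replicate 3 or 4. DESeq2 called 8 genes, Ccnd1 higher and 7 lower (Aurkb, Plk1, Top2a, Cdc20, Mcm6, Kif20a and Cdk1). None of the 19 erythroid or 9 hepatocyte markers passed the test in this comparison, and the erythroid sums were 40024 to 48064 CPM in AAV9.EGFP against 38783 to 48354 in AAV9.empty. None of the 11 neutrophil or 7 stellate cell markers passed either, but all of both lists were above 0. Of the neutrophil markers 10 had an unadjusted p under 0.05, with a median log2 fold change of 0.28 and sums of 2007 to 2769 CPM in AAV9.EGFP against 1844 to 2007 in AAV9.empty. Of the stellate cell markers 3 had an unadjusted p under 0.05, with sums of 801 to 1194 against 716 to 887 CPM. The part of these cells in the values of the 40 genes was not tested.

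In v2 against AAV9.empty, 0 of the 40 genes passed, 10 (25%) had an unadjusted p under 0.05 against 22.4% of all genes tested, DESeq2 called 0 and limma on log2(TPM + 1) called 2 lower (Bub1 and Kif20a). Log2 fold changes ran from -0.30 (Cenpe) to 0.29 (Cdc6). All 10 checkpoint, kinetochore and spindle genes were below 0 in v2, while 7 of the 12 replication genes were above 0. Pcna was 0.21 (adjusted p = 0.182) and Foxm1, the transcription factor of the G2 genes, was -0.24 (adjusted p = 0.218). In AAV9.empty against PBS, 0 of the 40 passed, 5 had an unadjusted p under 0.05 against 12.7% of all genes tested, and the median log2 fold change was 0.01. Ccnd1 had the largest value there, 0.55 (95% interval 0.26 to 0.83, adjusted p = 0.0881). DESeq2 called it, and so did the main test without PBS replicate 1 (0.69, adjusted p = 0.0123), the PBS liver with the highest Ccnd1 at 68.2 CPM. Cdc20 was 0.21 (adjusted p = 0.237) and Aurka 0.19 (adjusted p = 0.315) in AAV9.empty against PBS.

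Between vectors that carried a genome, Ccnd2 was the gene that differed most. Against E332K, v1 differed in Ccnd2 alone, and 27 of the 40 genes were above 0 with a median of 0.06 (0.02 to 0.20 with single libraries left out). The count was 0 without v1 replicate 1 or without any 1 of the E332K livers, and 2 (Ccnd2 and Bub1) without v1 replicate 2. Against AAV9.EGFP, v1 was higher in Ccnd2 and Ccne2, 34 of the 40 genes were above 0 and the median was 0.14 (0.09 to 0.25 with single libraries left out). That count was 10 without v1 replicate 2, 7 without AAV9.EGFP replicate 1, and 1 (Ccnd2) without v1 replicate 1 or 3 or AAV9.EGFP replicate 3 or 4. Against v2, v1 was higher in Ccnd2, 19 of the 40 genes were above 0 and the median was -0.02 (-0.09 to 0.11 with single libraries left out). The 95% interval lay within 2-fold for 36 of the 40 genes in v1 against E332K (all but Ccnd2, Mki67, Cenpe and Cenpf) and for 39 in each of the other 2 comparisons (all but Ccnd2).

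Other genes of the same pathways were counted from lists, which were chosen with earlier results known. Of 34 further replication genes, 0 rose and 5 (14.7%) fell in v1, where 14.3% of all genes fell, among them Tk1 (thymidine kinase) by -0.52, Pold1 (the catalytic subunit of polymerase delta) by -0.27, Rpa2 (a single-strand binding protein) by -0.39 and Rfc5 (a clamp loader) by -0.36, with adjusted p-values of 0.0205, 0.03, 0.0373 and 0.0459. In E332K, 3 of the 34 fell (8.82%, against 7.09% of all genes). In AAV9.EGFP none of the 34 passed, 12 (35.3%) had an unadjusted p under 0.05, and all 34 were below 0. In v2 none passed and 13 of 34 were below 0. Of 46 further mitotic genes, 1 fell in v1 (Spc25, a kinetochore subunit, -0.68, adjusted p = 0.0105), 6 in E332K, 1 in AAV9.EGFP (Anln, anillin, -0.51, adjusted p = 0.0261) and 2 in v2 (Ttk and Ect2), and 0 rose in any of these. Of 17 pocket proteins, DREAM subunits and repressor E2Fs, 2 rose in v1, Mybl1 (a MYB family factor) by 1.57 and Rb1 by 0.47, 1 rose in v2 (E2f4) and 0 changed in E332K or AAV9.EGFP. Of 13 further cyclins, kinases and activators, 3 rose in v1, Myc by 0.92, E2f2 by 0.33 and Cdk7 by 0.41, while Wee1, which restrains Cdk1, fell in E332K (-0.54, adjusted p = 0.00656) and v2 (-0.48, adjusted p = 0.0167). The shares of all genes tested that rose were 13.8% in v1, 7.93% in E332K, 0.387% in AAV9.EGFP and 2.88% in v2. The shares that fell were 14.3%, 7.09%, 0.0553% and 2.5%. Anln, Ttk, Ect2, E2f4 and Wee1 were named after their values were seen.

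The replication and mitotic classes parted in single livers. In E332K replicate 3, 21 of the 22 mitotic genes (all but Cdc20) lay below the mean of the other E332K livers and the median difference of the 22 was -0.29 on the log2 scale, while 12 of the 18 G1/S and replication genes lay above it and the median of the 18 was 0.13. The summed mitotic level in E332K replicates 1 to 3 was 1760.5, 2033 and 1356 CPM, and the summed G1/S and replication level was 1876, 1860.2 and 2003 CPM. v2 replicate 2 had the same form, with 21 of 22 mitotic genes below (all but Kif20a) and 11 of 18 others above the mean of its group mates, and its mitotic sum was 1508 CPM against 1970.4, 1817 and 1924 CPM. The erythroid sum was lowest in the same livers, at 28378 CPM in E332K replicate 3 and 27126 CPM in v2 replicate 2. In PBS replicate 1, 16 of the 22 mitotic genes lay below the mean of its group mates, at a median of -0.15. Of the 18 others, 10 lay above it, at a median of 0.02. The erythroid sums of the PBS livers were 43641 to 59396 CPM. The mean log2 level of the 19 erythroid markers was lowest in PBS replicate 1, at 8.244, against 8.251 to 8.689 in its group mates. In v1 replicate 2 both classes were low: 38 of the 40 genes lay below the mean of the other v1 livers, the median over the 40 was -0.31, and the exceptions were the D-type cyclins Ccnd1 and Ccnd2. Its erythroid sum, 40534 CPM, was close to the 40682 CPM of v1 replicate 3. Most of the erythroid sum came from 4 globin genes, at 36788 to 43259 CPM in v1. The mean log2 level of the 19 markers was lowest in v1 replicate 2, at 8.195, against 8.417 in replicate 1 and 8.348 in replicate 3. These livers were picked out after their values were seen, so the counts are descriptions.

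**Figure D4:**
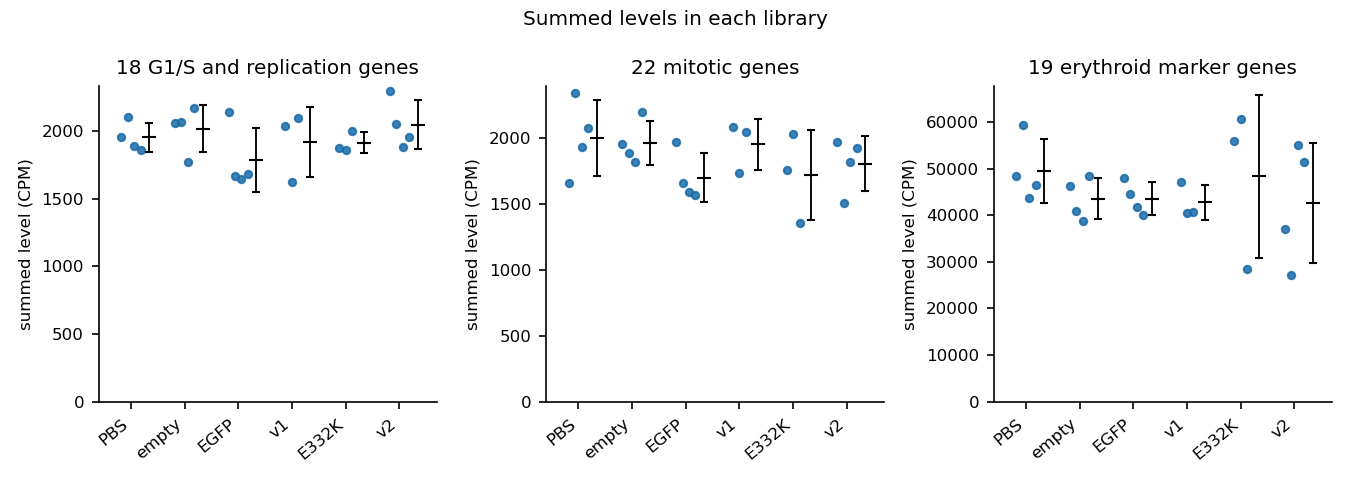
Summed level (CPM, y axis from 0) of the 18 G1/S and replication genes, the 22 mitotic genes and the 19 erythroid markers in each library by group; points are libraries and bars are means with SD. E332K replicate 3 has the lowest mitotic sum (1356 CPM) and a low erythroid sum (28378 CPM), while its replication sum is the highest of its group.

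The spread within groups differed between genes. The SD of log2 CPM within groups was 0.388 for Mki67, 0.376 for Cenpe, 0.351 for Cenpf and 0.279 for Ccnd1, while the median over the 40 genes was 0.168 and that over 14712 genes with a mean count of at least 10 was 0.195. Of those genes, 19.3% had a larger SD than Mki67. Mki67, Cenpe and Cenpf have long transcripts, and across the 40 genes Spearman's rho was 0.321 between the SD and transcript length and -0.407 between the SD and GC content, as a description over genes that share their libraries. In E332K replicate 3 the 428 coding genes with a transcript of at least 7000 bases and a GC content under 45%, Cenpe and Cenpf among them, lay at a median of -0.30 from the other E332K livers and 83.4% were below 0, against a median of 0.02 and 47.8% for all 13451 coding genes with a length. Mki67, at 46.6% GC, fell outside these limits, which were set after the values were seen. Whether length or base composition had a part in the low Mki67, Cenpe and Cenpf of that liver was not tested.

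**Figure D5:**
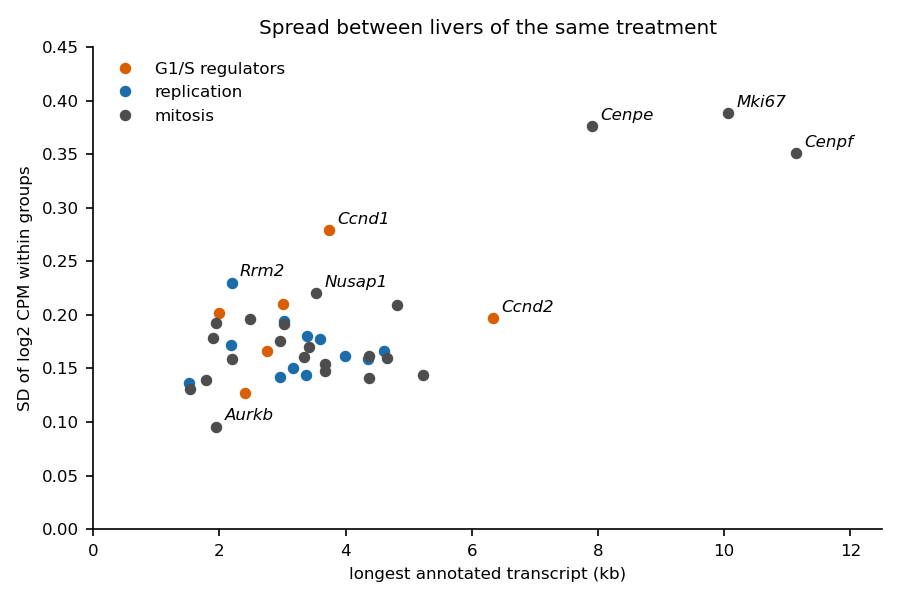
SD of log2 CPM within groups (y axis) against the length of the longest annotated transcript in kb (x axis) for the 40 genes, coloured by class. Mki67, Cenpe and Cenpf, at 0.388, 0.376 and 0.351, are the highest points and have the longest transcripts labelled.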

How the data were processed

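Liver RNA was enriched with oligo(dT) beads and depleted of ribosomal RNA. Per the labels and the study's methods, reads were trimmed with Trimmomatic, aligned to mm10 with STAR and quantified per gene with RSEM. Versions and the annotation release are not given in the sources used here. The authors deposited 1 table of RSEM expected counts and 1 of TPM, with a column for each of the 22 libraries. Of the expected counts, 5.69% were not whole, and they were rounded. Of 55291 genes, 27475 had no count. The kit and counting are not stated to keep strand, so reads of overlapping antisense genes cannot be told apart.

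Each of 8 comparisons was fitted on its own groups with edgeR 4.0.16 (R 4.3.3): genes passing filterByExpr, TMM factors, the quasi-likelihood F-test, and Benjamini-Hochberg adjustment over all genes tested. A gene was called, or said to rise or fall, at an adjusted p of at most 0.05. SEs are the size of the log2 fold change over the square root of F, and 95% intervals are unadjusted. CPM used TMM factors over all 22 libraries. The steps recovered known changes when tested on simulated data, where every planted change was of 2-fold or more. Smaller changes, such as those called among the 40 genes, were not simulated.

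The members and lists were chosen with earlier results of these data known. Values in every library are given for 11 fixed members, for the 2 of each class with the smallest adjusted p against AAV9.empty, and for the 3 with the smallest in each other comparison. From other lists, Cdkn1a and up to 4 genes with the smallest adjusted p in v1 are named; 1 result from these lists is not reported here. Alternatives were DESeq2 1.42.0, RLE factors, other filters, all 6 groups in 1 fit, a replicate block, limma 3.58.1 on log2(TPM + 1) and log2(TPM + 0.1), a 2-fold minimum, an erythroid score and the presence of Gm47283 reads (absent in 9 libraries) as covariates, and each library left out in turn. Promoters and windows came from RefSeq (GRCm38.p6). Gene positions are in GRCm38.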

Additional observations from a re-analysis of the deposited data

Results flagged for a closer look

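A library counted as far from its 3 group mates where its gap to the nearest of them, over the range of the group, passed Dixon's critical value at the 95% level. Chance flags about 1 in 20 groups, and 15 of the 108 combinations of a named gene and a group of 4 met the mark. All values are CPM.

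AAV9.EGFP replicate 1 stood apart for Ccne1 at 56.1 (others 39.96 to 41.00), Top2a at 231 (others 191 to 197), Ccnb1 at 86.4 (others 57.1 to 59.7), Cdc20 at 79.3 (others 58.3 to 61.6), Aurka at 54.5 (others 37.2 to 38.9), Mcm7 at 198 (others 151 to 156) and Cdk2 at 47.8 (others 44.1 to 44.6). AAV9.empty replicate 3 stood apart for Mcm2 at 133 (others 163 to 168) and Kif20a at 45.97 (others 54.1 to 55.6). v2 replicate 2 stood apart for Cenpe at 20.5 (others 34.7 to 36.9) and Cenpf at 34.4 (others 49.2 to 50.98). Single genes were PBS replicate 2 for Ccnb1 at 88.9 (others 70.7 to 71.99), v2 replicate 1 for Ccnb1 at 93.5 (others 70.7 to 72.6), AAV9.EGFP replicate 3 for Ccnd2 at 33.3 (others 31.4 to 31.7) and PBS replicate 1 for Cenpe at 25.5 (others 46.4 to 47.9).

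AAV9.EGFP replicate 1 accounted for 7 of the 15 and was the high library in each. Genes of 1 library share its RNA, so these are not separate events.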

How the results depend on the processing

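Counts are genes of the 40 called. The comparisons with AAV9.empty are v1, E332K, AAV9.EGFP and v2, with 3, 4, 1 and 0 genes called, AAV9.empty against PBS has 0, and v1 against E332K, AAV9.EGFP and v2 has 1, 2 and 1. RLE size factors and a mean count of at least 10 moved no count by more than 1.5 times. DESeq2 gave 8 in AAV9.EGFP, 1 in AAV9.empty against PBS and 5 in v1 against AAV9.EGFP. No filter on low counts gave 4 in AAV9.EGFP and 1 in AAV9.empty against PBS. All 6 groups in 1 fit gave 2 in v1 against E332K and 2 in v1 against v2. A 2-fold minimum as well gave 0 in every comparison. With limma, log2(TPM + 1) gave 1 in v1, 7 in E332K, 0 in AAV9.EGFP, 2 in v2, 8 in v1 against AAV9.EGFP and 4 in v1 against v2. With log2(TPM + 0.1) these were 1, 7, 0, 2, 8 and 4, with 2 in v1 against E332K. Without a TPM minimum, log2(TPM + 1) gave 1 in v1, 0 in AAV9.EGFP, 0 in v1 against E332K, 1 in v1 against AAV9.EGFP and 2 in v1 against v2. The erythroid covariate gave 9 in v1, 16 in E332K, 7 in AAV9.EGFP, 6 in v2, 7 in v1 against E332K, 4 in v1 against AAV9.EGFP and 2 in v1 against v2. The Gm47283 covariate gave 2 in v1 against v2. Why these counts moved was not tested.

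With each library left out in turn the count ranged from 1 to 5 in v1, 1 to 6 in E332K, 0 to 11 in AAV9.EGFP and 0 to 1 in AAV9.empty against PBS. It ranged from 0 to 2 in v1 against E332K and from 1 to 10 in v1 against AAV9.EGFP, stayed at 1 in v1 against v2 and at 0 in v2.

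The replicate block gave 0 in E332K, 2 in AAV9.EGFP, 1 in v2 (Kif20a), 1 in v1 against AAV9.EGFP and 0 in v1 against v2, where Ccnd2 had an adjusted p of 0.112. It gave 2 in v1 (Ccnd2 and Mki67). Correlations between same-numbered libraries ran from -0.208 to 0.314. In no comparison did every pair exceed 0.1 or every library correlate best with its own number. The number was therefore not taken to pair them. In v2 against AAV9.empty, 3 of 4 pairs exceeded 0.1, and whether some pairs shared a batch was not tested.

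The TPM scale, log2(TPM + 0.1), moved the median of all genes by -0.11 in E332K, -0.12 in v2, 0.20 in v1 against E332K, 0.14 in v1 against AAV9.EGFP and 0.20 in v1 against v2. Relative to that median, the 40 genes lay at -0.18, -0.08, 0.05, 0.16 and -0.01. In v1 against AAV9.empty the median of the 40 turned from -0.08 to 0.05, which is -0.07 relative to all genes. It was -0.03 with the replicate block, and -0.13 in v1 and -0.11 in v2 with the Gm47283 covariate. Of 4158 single-gene values under the alternatives, 3665 kept their direction and side of the threshold, 318 changed sign without passing the test under either setting, 67 lost a call and 108 gained one, and 0 of the called values changed sign. Most of the 4158 belong to genes not called in the main fit, which keep their side of the threshold by staying uncalled. Depth limits the lowest genes most, such as Cdc25c at 5.65 CPM in its lowest AAV9.EGFP library.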
